A study of Mus musculus with 2 samples.

Results

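The genes described here decide which fast transmitter a forebrain neuron makes and packs. Slc17a6 (ENSMUSG00000030500) and Slc17a7 (ENSMUSG00000070570) encode the vesicular glutamate transporters VGLUT2 and VGLUT1. Slc32a1 (ENSMUSG00000037771) encodes the vesicular transporter of GABA, and Gad1 (ENSMUSG00000070880) and Gad2 (ENSMUSG00000026787) encode the enzymes GAD67 and GAD65, which make GABA from glutamate. These 5 genes were taken by symbol, and all 5 had a row among the 28001 features of one library and among the 32286 features of the other.

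Glutamatergic neurons of the pallium and GABAergic neurons of the subpallium are born in separate territories of the embryonic telencephalon. Neurons of the pallium pass through Eomes, Neurod and Tbr1 expression, whereas Dlx factors mark neurons of the subpallium. Transmitter genes are switched on as newborn neurons leave the ventricular zone, and they mark the identity that a neuron has taken.

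The data are 2 scRNAseq libraries from C57BL/6J mouse embryos, 1 per tissue. The septal explants pooled 8 PGKCre;Rosa26YFP embryos of E11.5 and 4 Dbx1Cre;Rosa26tdTomato embryos of E12.5, and the label gives this library as wild-type without a treatment. The telencephalic vesicle library pooled 3 wild-type embryos, labelled E12 and given as E11.5 to E12 in the methods of the study. PGKCre acts broadly in the embryo and Dbx1Cre in cells that express or have expressed Dbx1, so that the first reporter does not mark a cell type and the second marks a lineage. The libraries were made with versions 2 and 3.1 of a droplet kit and counted with different software versions, and levels were therefore never compared between them. Levels are given in CPM, which is how many UMIs a gene had per 1000000 UMIs counted in the cells of a class together. Each library was read on its own, and in both the embryos and litters were pooled, so that cells are not replicates and no test between conditions was possible. All intervals are exact 95% intervals (Poisson for summed counts, Clopper-Pearson for shares of cells) and cover counting error only.

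After filtering, 5384 of 5827 barcodes of the septal explants and 11758 of 14283 barcodes of the telencephalic vesicle were kept, with a median of 12868.5 and 9058.5 unique transcript molecules (UMIs) per cell. The libraries shared 1 barcode sequence. Neurons were the cells with at least 2 times as many UMIs of 11 neuronal genes as of 9 apical progenitor (AP) genes, with 1 added to each sum, which is a value of 1 or more on a log2 differentiation axis. This gave 1643 septal neurons and 2468 neurons of the telencephalic vesicle, and 221 and 497 cells lay within 0.5 of the limit. Doublets called were 1.10% and 5.72% of barcodes, below the expected 4.36% and 9.98%, so that some doublets may remain.

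Neurons were then classed by transcription factors, none of which is a transmitter gene. Dlx-factor neurons held at least 2 UMIs of Dlx1, Dlx2, Dlx5, Dlx6 and Sp9, and pallial-factor neurons at least 2 UMIs of Tbr1, Neurod1, Neurod2, Neurod6 and Eomes, in each case 80% or more of the UMIs of both lists. The septal explants held 314 Dlx-factor and 994 pallial-factor neurons, and the telencephalic vesicle 903 and 1088. Cells with Trp73 and Lhx1 or Lhx5, which include Cajal-Retzius cells, were kept apart as a Trp73 class of 197 and 122 neurons. A Zic class, with Zic or Lhx9 UMIs and fewer than 2 UMIs of both factor lists together, held 112 and 136 neurons. A mixed class with both lists held 21 and 41. In the septal explants the Zic class was rich in Isl1 (707 CPM), and so was the small group of Dlx-factor neurons assigned by Nkx2-1, Lhx6 and Lhx8 (527 CPM), which held only 23.7 CPM of Lhx6, so that these classes are named by their factors and not by a cell type.

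The upstream sequences of the 5 genes are printed because expression of these genes divided the neuron classes more sharply than that of most genes, and the sequence just before the transcription start is where such genes can be compared directly. They were read from the RefSeq promoter table of GRCm38.p6, which held all 5 genes, and each is 5′ to 3′, up to 250 bases before the annotated start and shortened where an annotated exon begins. The RefSeq starts are not always the gene starts of the GENCODE annotation given after the sequences, and the Gad1 window lies inside the coordinates of that gene, before a later start. Capitals mark CANNTG, the E-box letters to which basic helix-loop-helix factors such as Neurod can bind.
Slc17a6, chr7:51621580-51621829, plus strand: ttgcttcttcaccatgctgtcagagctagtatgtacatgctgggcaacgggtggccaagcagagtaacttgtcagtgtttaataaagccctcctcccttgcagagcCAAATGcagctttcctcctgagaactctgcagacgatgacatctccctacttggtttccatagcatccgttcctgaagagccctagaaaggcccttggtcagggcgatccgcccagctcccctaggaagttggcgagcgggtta
Slc17a7, chr7:45163671-45163920, plus strand: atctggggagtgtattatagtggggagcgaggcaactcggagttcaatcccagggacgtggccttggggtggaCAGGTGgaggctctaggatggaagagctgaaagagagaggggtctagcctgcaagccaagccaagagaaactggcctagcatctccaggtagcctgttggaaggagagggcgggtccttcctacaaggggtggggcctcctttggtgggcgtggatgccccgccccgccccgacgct
Slc32a1, chr2:158610508-158610757, plus strand: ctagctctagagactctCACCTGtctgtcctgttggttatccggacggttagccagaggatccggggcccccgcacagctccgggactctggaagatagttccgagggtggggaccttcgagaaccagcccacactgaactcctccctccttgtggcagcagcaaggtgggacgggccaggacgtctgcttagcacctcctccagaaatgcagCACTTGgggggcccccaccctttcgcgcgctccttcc
Gad1, chr2:70561879-70562041, plus strand: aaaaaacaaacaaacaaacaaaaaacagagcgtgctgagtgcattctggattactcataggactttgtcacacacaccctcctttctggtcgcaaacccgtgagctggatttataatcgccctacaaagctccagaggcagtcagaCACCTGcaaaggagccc
Gad2, chr2:22622077-22622204, plus strand: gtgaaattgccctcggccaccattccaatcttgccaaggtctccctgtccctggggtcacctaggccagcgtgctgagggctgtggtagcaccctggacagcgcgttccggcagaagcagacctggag
The full windows of 250 bases run into an annotated exon after 163 bases for Gad1 and 128 bases for Gad2, so that their counts include exon sequence. In these full windows, CANNTG (a palindrome, read once for both strands) occurred 2 times for Slc32a1 and 1 time for each of the other 4 genes. The match of Gad2 lay outside the stretch printed. The letters were present in 66.2% of 32851 promoter windows, so that their presence sets none of the 5 genes apart. TAATTA, the core letters of homeodomain motifs, was absent from all 5 windows and present in 4.84% of all windows. A later annotated start of Slc17a6, at chr7:51624387-51624636, had 2 CANNTG and 1 TAATTA. CpG dinucleotides in the full windows numbered 17 for Gad1 and 13 for Gad2, exon bases included. They numbered 12 for Slc32a1, 9 for Slc17a7 and 7 for Slc17a6, against a median of 6 over all windows. A match of letters is no evidence of binding.

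All 5 genes lie on the plus strand in GRCm38 (GENCODE vM21), Slc17a6 at chr7:51622006-51671119, Slc17a7 at chr7:45163949-45176142, Slc32a1 at chr2:158610767-158615748, Gad1 at chr2:70553072-70602014 and Gad2 at chr2:22622205-22693874. Slc32a1 and Gad1 overlap antisense genes, Gm14205 and Gad1os, that were counted in both libraries. Whether reads in these overlaps were assigned by strand is not given in the sources used here, so that part of their counts could belong to the partner.

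VGLUT2 marked the pallial-factor neurons of both libraries and was nearly missing from Dlx-factor neurons. In the septal explants, Slc17a6 reached 72.5 CPM in pallial-factor neurons (883 UMIs, interval 67.8 to 77.5) and 0.896 CPM in Dlx-factor neurons (3 UMIs). The level was 81.0-fold higher in the pallial-factor neurons (interval 27.6 to 393). The telencephalic vesicle gave 271 CPM (2444 UMIs, interval 260 to 282) against 1.17 CPM (8 UMIs), 231-fold higher (interval 117 to 535). A Slc17a6 UMI was found in 50.2% of pallial-factor neurons of the septal explants and 73.6% of those of the telencephalic vesicle, against 0.955% and 0.554% of Dlx-factor neurons. Erythroid cells of the telencephalic vesicle, which do not make this transporter, held a Slc17a6 UMI in 0.403% of 496 cells (median 4838.5 UMIs) and mesenchyme in 1.39% of 433 cells (median 12286 UMIs), and the shares of the Dlx-factor neurons (median 6716 UMIs) were of this order.

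VGLUT1, the transporter of mature cortical projection neurons, was already present in a minority of pallial-factor neurons. Septal pallial-factor neurons held 12.7 CPM of Slc17a7 (155 UMIs in 12.2% of cells), and those of the telencephalic vesicle 27.7 CPM (250 UMIs in 17.2%). Dlx-factor neurons held 0 Slc17a7 UMIs in the septal explants, where 3 UMIs would give 0.896 CPM, so that Slc17a7 was at least 14.2-fold higher in pallial-factor neurons. The Dlx-factor neurons of the telencephalic vesicle held 2 UMIs, and the ratio was 94.4-fold (interval 25.9 to 784). Of the pallial-factor neurons with Slc17a7, 61.2% of the septal cells and 83.4% of those of the telencephalic vesicle also held Slc17a6. Both transcripts were together in 74 and 156 pallial-factor neurons, against 60.7 and 138 from the product of the shares. The ratios were 1.22 (interval 0.957 to 1.53) and 1.13 (interval 0.962 to 1.33). These Poisson intervals hold the product fixed and leave out the limits that the shares set on the overlap. They are therefore too wide to decide whether the ratios differ from 1.

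The GABA genes showed the reverse order. Dlx-factor neurons of the septal explants held 258 CPM of Gad2 (863 UMIs, interval 241 to 275), and pallial-factor neurons held 1.81 CPM (22 UMIs), a 143-fold difference (interval 93.6 to 229). Gad1 was counted at 146 CPM (490 UMIs) against 0.0821 CPM (1 UMI), and Slc32a1 at 151 CPM (505 UMIs) against 0.164 CPM (2 UMIs). These ratios were 1781-fold (interval 318 to 70482) and 918-fold (interval 253 to 7598), and the 1 and 2 UMIs in the denominators leave their size uncertain. Gad2 was the one GABA gene with more than a few UMIs in pallial-factor neurons of the septal explants, where 2.01% of cells held it.

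Gad2 reached 607 CPM in Dlx-factor neurons of the telencephalic vesicle (4135 UMIs, interval 589 to 626) against 2.22 CPM in pallial-factor neurons (20 UMIs), 274-fold higher (interval 177 to 449). One pallial-factor cell held 11 of these 20 UMIs. Gad1 was at 170 CPM (1161 UMIs) against 0.776 CPM (7 UMIs), 220-fold higher (interval 106 to 547). Slc32a1 was at 101 CPM (685 UMIs) against 0.554 CPM (5 UMIs), 181-fold higher (interval 77.4 to 560). Both libraries therefore placed all 3 GABA genes in the neurons with Dlx factors.

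The share of Dlx-factor neurons with a Gad2 UMI was 63.4% (interval 57.8 to 68.7%) for the septal explants and 86.3% for the telencephalic vesicle. Gad1 was found in 51.0% and 59.1%, and Slc32a1 in 52.9% and 47.5%. At an equal depth of 8000 UMIs per septal cell, reached by drawing UMIs at random, the 3 shares were 66.2%, 50.4% and 50.8%, and at 3500 UMIs per cell of the telencephalic vesicle 76.6%, 42.6% and 29.1%. Here and below, thinned shares leave out cells shallower than the set depth. They therefore rest on fewer cells than the full shares and are not a change within the same cells. Gad2 was also the gene counted most deeply in single cells, with 6 or more UMIs in 20.1% and 33.6% of Dlx-factor neurons and a highest count of 20 and 47. Mesenchyme of the telencephalic vesicle gave a reference of 2.31% for Gad2.

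**Figure D1:**
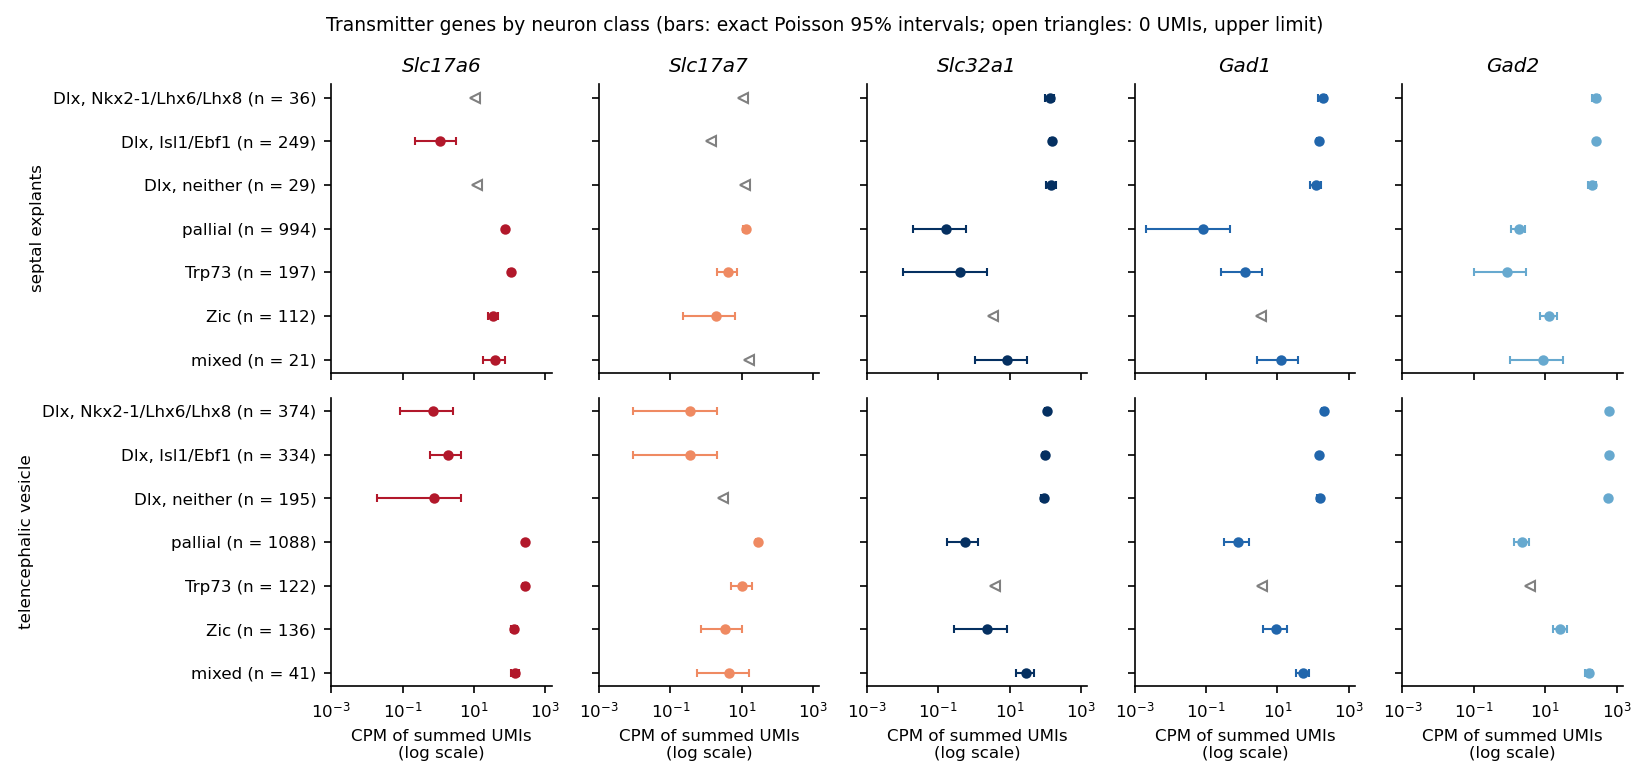
Level of each gene by neuron class, in CPM of summed UMIs on a log axis, with the septal explants above and the telencephalic vesicle below; points are the pooled cells of a class, bars are exact Poisson 95% intervals, and open triangles mark the upper limit where 0 UMIs were counted. Slc17a6 lies at 72.5 and 271 CPM in pallial neurons and Gad2 at 258 and 607 CPM over all Dlx classes, and each lies below 3 CPM in the opposite class.

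Set against all genes, these were among the widest differences between the classes. A difference of 2-fold or more towards Dlx-factor neurons was found for 2.55% of 10317 septal genes with at least 50 UMIs and for 3.54% of 11647 genes of the telencephalic vesicle, and all 3 GABA genes passed it in both. Towards pallial-factor neurons the background was 6.32% and 4.97%, and both glutamate transporters passed. Ordered by fold towards Dlx-factor neurons, with genes at 0 in a class set to 3 UMIs, Gad1, Slc32a1 and Gad2 stood at places 1, 2 and 10 in the septal explants and at places 7, 10 and 5 in the telencephalic vesicle. Towards pallial-factor neurons, Slc17a6 stood at places 7 and 6, and Slc17a7 at 87 and 16. Genes with 1 or 2 UMIs in a class kept those counts and could stand ahead of genes at 0. In the septal explants, Gad1 and Slc32a1 kept 1 and 2 UMIs in pallial-factor neurons. Septal Slc17a7, at 0 UMIs in Dlx-factor neurons, was set to 3, whereas that of the telencephalic vesicle kept its 2 UMIs. The factors that define the classes were part of this order, and the genes had been chosen with earlier results known, so that the places describe the difference and are no test.

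Within the Dlx-factor neurons, the GABA genes were nearly even across subgroups. The subgroup with Nkx2-1, Lhx6 or Lhx8 is typical of the medial ganglionic eminence, and Isl1 and Ebf1 mark striatal and septal neurons. Gad2 of the telencephalic vesicle was counted at 619 CPM in the 374 neurons with Nkx2-1, Lhx6 or Lhx8, at 608 CPM in the 334 neurons with Isl1 or Ebf1 and at 579 CPM in the 195 neurons with neither, with overlapping intervals. Gad1 was the exception, at 199 CPM in the first group (interval 182 to 216) against 150 and 153 CPM in the others, whose intervals lay below. Slc32a1 was at 111, 95.2 and 89.2 CPM, with intervals that overlapped between neighbours in this order. Among septal neurons, with 36, 249 and 29 cells of these groups, no interval of a GABA gene stood apart from that of its neighbour.

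The ratio of Gad2 to Gad1 UMIs was also compared between the subgroups, since it needs no total. It does not say which mRNA is more abundant, since molecules of different genes may be caught with different efficiency, but it can be compared between classes of 1 library. It was 3.12 (interval 2.83 to 3.44) in telencephalic vesicle neurons with Nkx2-1, Lhx6 or Lhx8 and 4.05 (interval 3.63 to 4.52) in those with Isl1 or Ebf1, and at 3.79 (interval 3.24 to 4.47) in those with neither it overlapped both. The corresponding septal ratios were 1.40 and 1.82, and their intervals overlapped.

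The Trp73, Zic and mixed classes carried Slc17a6. The 178 neurons of the telencephalic vesicle without a class, at a median of 1296 UMIs per cell, held 54 Slc17a6 UMIs. They also held 71 Gad2, 9 Gad1 and 20 Slc32a1 UMIs. Septal Trp73 neurons had the highest Slc17a6 level of the 7 classes plotted, 106 CPM (interval 93.7 to 120), found in 65.0% of cells and apart from the pallial-factor neurons. Their level in the telencephalic vesicle, 268 CPM, could not be told from the 271 CPM of pallial-factor neurons. Slc17a7 was low in this class, at 4.12 CPM in the septal explants and 10.3 CPM in the telencephalic vesicle, both apart from the pallial-factor neurons. The ratio of Slc17a7 to Slc17a6 UMIs was 0.0388 (interval 0.0184 to 0.0724) and 0.0385 (interval 0.0182 to 0.0719) in Trp73 neurons, against 0.176 (interval 0.147 to 0.208) and 0.102 (interval 0.0894 to 0.117) in pallial-factor neurons. Trp73 neurons of the telencephalic vesicle held 0 UMIs of Gad1, Gad2 and Slc32a1 in 122 cells, a count under which a share of 2.46% (3 cells) could still go unseen.

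The Zic class had less Slc17a6 and some Gad2. Slc17a6 was at 35.1 CPM in the septal explants (22.3% of 112 cells) and at 130 CPM in the telencephalic vesicle (43.4% of 136 cells), in both apart from the highest class and from every Dlx group. Gad2 was found in 12 Zic cells of the septal explants (10.7%, 12.9 CPM), whereas Gad1 and Slc32a1 had 0 UMIs in the same 112 cells, where 3 UMIs would give 2.77 CPM. Thinned to 8000 UMIs, the Gad2 share was 6.25%. Of the Zic cells of the telencephalic vesicle, 7.35% held Gad2 and 3.68% Gad1. A Zic cell could hold a Dlx-factor UMI, and in this library 5 of the 10 cells with Gad2 and 3 of the 5 with Gad1 did. Among septal Zic cells with Gad2, a Dlx-factor UMI was present in 1 of 8 without an Fgf8 or Fgf17 UMI. It was present in 1 of 2 with 1 such UMI and in 0 of 2 with 2 or more. Mixed neurons of the telencephalic vesicle held both kinds of transcript, with 141 CPM of Slc17a6 and 168 CPM of Gad2, at a median of 10506 UMIs per cell against 6716 in Dlx-factor neurons. The part of doublets in this class was not tested.

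The GABA genes were found together in the same cells. Gad1 and Gad2 were both detected in 145 of 314 Dlx-factor neurons of the septal explants (46.2%, interval 40.6 to 51.9%), where the product of the shares gives 101, and in 512 of 903 of the telencephalic vesicle (56.7%, interval 53.4 to 60.0%), where it gives 461. Of the cells with Gad1, 90.6% and 95.9% also held Gad2, and of those with Gad2, 72.9% and 65.7% held Gad1. Of the cells with the transporter Slc32a1, 94.0% and 98.8% held at least 1 of the enzymes. The part of depth and of axis position in these overlaps was not tested.

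Full sets and empty sets differed in their place on the differentiation axis. All 3 GABA genes were detected in 127 Dlx-factor neurons of the septal explants (40.4%) and in 311 of the telencephalic vesicle (34.4%), with a median axis value of 3.89 and 3.91. None of them was detected in 90 neurons (28.7%) and 97 neurons (10.7%), with a median axis value of 1.97 and 1.43 and a median of 8699.5 and 6301 UMIs, against 11248 and 7204 UMIs in cells with the full set. Gad2 alone was the most common single gene, in 33 neurons (10.5%) and 161 neurons (17.8%), at median axis values of 2.84 and 2.49. Gad1 alone was found in 7 and 15 neurons and Slc32a1 alone in 10 and 5.

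**Figure D2:**
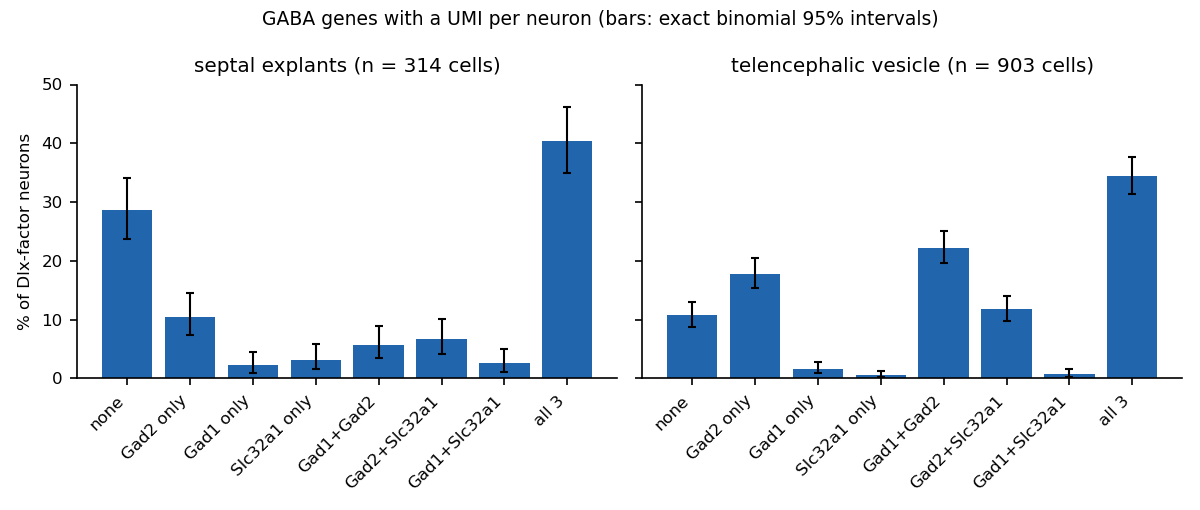
Share of Dlx-factor neurons by the set of GABA genes with at least 1 UMI, in percent of 314 cells of the septal explants (left) and 903 cells of the telencephalic vesicle (right); bars carry exact binomial 95% intervals. The full set is the largest group in both, at 40.4% and 34.4%, and among single genes Gad2 alone leads, at 10.5% and 17.8%.

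Glutamatergic and GABAergic transcripts were rarely found in 1 cell. Slc17a6 was detected with at least 1 GABA gene in 19 of 1643 neurons of the septal explants (1.16%, interval 0.698 to 1.80%) and in 33 of 2468 neurons of the telencephalic vesicle (1.34%, interval 0.922 to 1.87%). The product of the shares over all neurons gives 107 and 358 cells. With at least 2 UMIs of each, 2 and 12 cells remained. Slc17a7 was found with a GABA gene in 3 and 5 neurons. The product over all neurons pools classes that differ in both kinds of gene, so that it reflects the difference between classes. Within pallial-factor neurons, the ratio of observed to product for Slc17a6 with a GABA gene was 0.693 (interval 0.299 to 1.37) and 1.18 (interval 0.627 to 2.01). Within Dlx-factor neurons it was 1.40 (interval 0.289 to 4.10) and 0.896 (interval 0.244 to 2.29). These wide intervals include 1, so that no shortfall within these classes was shown.

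The co-detecting cells were deeper than other neurons and not evenly spread over the classes. Their median was 13925 UMIs among septal neurons and 11206 among those of the telencephalic vesicle, against 11025 and 6755 over all neurons. Of the 33 cells of the telencephalic vesicle, 15 were among the 41 mixed neurons and 13 were pallial-factor neurons. Of the 19 septal cells, 8 were pallial-factor, 4 Trp73, 3 Zic, 3 Dlx-factor and 1 mixed. Among neurons that had been removed as doublets, 3 of 34 (8.82%) and 20 of 163 (12.3%) held both kinds of transcript, a higher share than among the neurons kept. The removed neurons were also deeper, with medians of 24815 and 15887 UMIs. The part of depth and of the doublet call itself in this difference was not tested.

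Along the neuronal side of the axis, the GABA genes of Dlx-factor neurons took different courses. The axis was divided into intervals of 1, a division made after the values had been seen. Septal Gad2 was at 31.8 CPM in the 63 neurons between 1 and 2, at 168, 260 and 470 CPM in the next 3 intervals and at 431 CPM in the 27 neurons at 5 or more. Gad1 ran from 18.4 to 241 CPM and Slc32a1 from 13.4 to 238 CPM over the first 4 intervals. At 5 or more they were at 198 and 257 CPM, not apart from the interval before.

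Gad2 of the telencephalic vesicle already stood at 293 CPM between 1 and 2 (217 neurons), and reached 512, 712 and 878 CPM in the following intervals and 824 CPM at 5 or more (144 neurons). Slc32a1 went from 36.0 to 145 CPM and was at 150 CPM at 5 or more. Gad1 did not keep its level. It went from 74.9 to 269 CPM (interval 240 to 300) between 4 and 5, and was at 159 CPM (interval 138 to 184) at 5 or more. Both larger subgroups had the lower Gad1 value at the end, 304 and then 218 CPM in neurons with Nkx2-1, Lhx6 or Lhx8 and 235 and then 123 CPM in neurons with Isl1 or Ebf1, with overlapping intervals in the former and separate ones in the latter. Gad2 over the same step went from 1002 to 817 CPM in the first subgroup and from 744 to 829 CPM in the second.

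Among pallial-factor neurons, VGLUT2 and VGLUT1 did not run in parallel. Slc17a6 went from 25.1 CPM between 1 and 2 to 71.5 CPM in the next interval and 90.6 CPM at 5 or more in the septal explants, and the same intervals of the telencephalic vesicle gave 117, 279 and 307 CPM. Slc17a7 was highest in the middle of the axis and low at its end. Septal cells held 1.98 CPM between 1 and 2, 17.3 CPM (interval 13.3 to 22.3) between 3 and 4 and 6.38 CPM (interval 3.06 to 11.7) at 5 or more. The telencephalic vesicle gave 18.9 CPM, 36.9 CPM (interval 29.6 to 45.5) and 7.29 CPM (interval 3.33 to 13.8).

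The makeup of the pallial-factor neurons also moved along the axis. Reln, which marks Cajal-Retzius cells, was at 9.25 CPM between 1 and 2 and at 95.7 CPM at 5 or more in the septal explants, and at 36.7 and 286 CPM in the telencephalic vesicle. In pallial-factor neurons without a Reln UMI, a choice made after these values were seen, Slc17a7 was at 18.4 CPM (interval 13.3 to 24.8) between 3 and 4 and at 5.57 CPM (interval 1.52 to 14.3) at 5 or more in the septal explants, so that the intervals overlapped there. Those of the telencephalic vesicle held 34.7 CPM (interval 26.6 to 44.6) and 3.07 CPM (interval 0.372 to 11.1), and these intervals were apart.

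**Figure D3:**
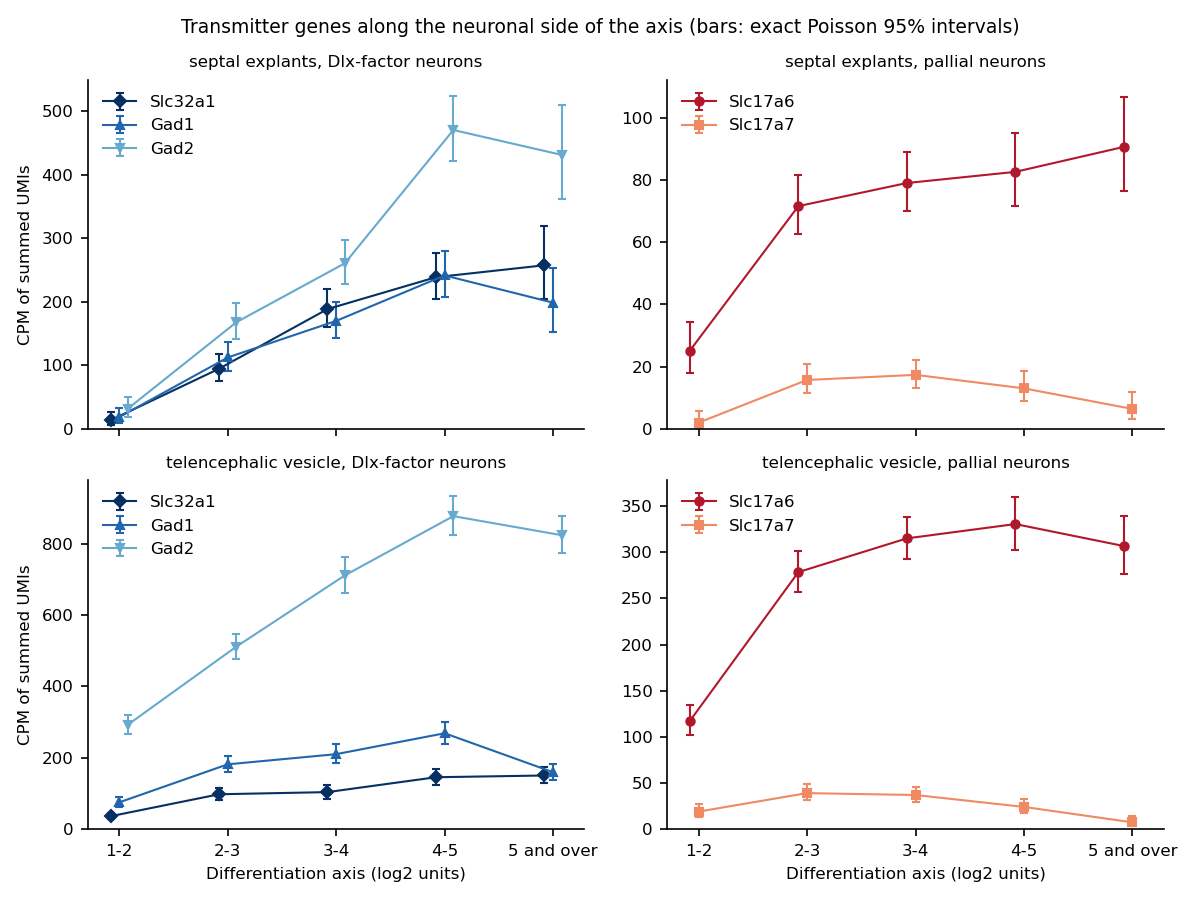
Level in CPM of summed UMIs (linear axis) by interval of the differentiation axis, for the GABA genes in Dlx-factor neurons (left) and the glutamate transporters in pallial-factor neurons (right), with the septal explants above and the telencephalic vesicle below; bars are exact Poisson 95% intervals. Gad1 of the telencephalic vesicle goes from 269 to 159 CPM over the last step while Slc32a1 stays at 145 and 150 CPM, and Slc17a7 peaks in the middle of the axis.

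Gad2 and Gad1 were also followed from the progenitor side of the axis. Cells of the subpallial lineage, chosen at any axis value by the Dlx factors and further subpallial factors such as Gsx1, Gsx2 and Nkx2-1, of the telencephalic vesicle were divided into 10 bins of 376 or 377 cells in order of the axis. Gad2 was at 6.77 CPM in bin 5 and at 159 CPM in bin 8, where Gad1 was at 0.584 and 32.6 CPM. Cells of this lineage between progenitors and neurons had 6.76 Gad2 UMIs per Gad1 UMI (interval 5.17 to 8.97), against 3.56 (interval 3.34 to 3.80) in Dlx-factor neurons, whereas its progenitors, at 4.57 (interval 2.54 to 8.83), could not be told from the neurons. The septal step was at bins 8 and 9 for both enzymes, with Gad2 at 15.9 and 177 CPM and Gad1 at 10.4 and 119 CPM. Septal cells of the lineage between progenitors and neurons had a ratio of 2.29 (interval 0.890 to 6.57), which overlapped the 1.76 of septal Dlx-factor neurons.

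Slc17a6 of the pallial lineage had a steep step of its own. Septal levels went from 4.34 CPM in bin 5 to 52.5 CPM in bin 6 of 10, which begins at an axis value of 1.38. The telencephalic vesicle gave 7.63 CPM in bin 4, 62.1 CPM in bin 5 and 190 CPM in bin 6. Intermediate cells of the pallial lineage held 12.1 CPM of Slc17a6 in the telencephalic vesicle and 2.57 CPM in the septal explants.

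Progenitors held few transmitter transcripts, and Gad2 was the most frequent of them. In the 2608 progenitors of the septal explants, Slc17a6 was found in 0.997%, Slc17a7 in 0.422% and Gad1 and Slc32a1 in 0.307% each, but Gad2 in 3.87% (111 UMIs). The 5521 progenitors of the telencephalic vesicle gave 1.01%, 0.0725%, 0.561%, 0.272% and 2.03% for Slc17a6, Slc17a7, Gad1, Slc32a1 and Gad2, and this Gad2 share was not above the 2.31% of mesenchyme of the same library. Gad2 UMIs outnumbered those of Gad1 by 13.9 to 1 in progenitors of the septal explants (interval 6.80 to 32.9), against 1.76 (interval 1.57 to 1.97) in the Dlx-factor neurons of the same library. Progenitors of the telencephalic vesicle gave a ratio of 4.18 (interval 2.86 to 6.26), which overlapped that of its Dlx-factor neurons.

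The Gad2 UMIs of septal progenitors lay mainly in cells with Fgf8 or Fgf17, the signals of the rostral patterning centre. This split was chosen after the values had been seen. Of 925 progenitors with 2 or more UMIs of these genes, 86 held Gad2 (9.30%, interval 7.50 to 11.4%, median 14073 UMIs per cell), against 8 of 370 with 1 such UMI (2.16%) and 7 of 1313 with none (0.533%, interval 0.215 to 1.10%, median 14665). Thinned to 8000 UMIs, the shares were 5.48% and 0.163% in cells with 2 or more and with none. Only 3 of the 925 cells held Gad1 and 4 held Slc32a1. A Dlx-factor UMI was present in 10 of the 86 cells with Gad2.

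The same split held in cells between progenitors and neurons of the septal explants. Gad2 was held by 29 of 403 with 2 or more Fgf8 and Fgf17 UMIs (7.20%) and by 3 of 513 with none (0.585%). The split was not seen in septal Zic neurons, at 2 of 31 against 8 of 58, with overlapping intervals. Cells between progenitors and neurons of the telencephalic vesicle gave 58 of 298 (19.5%) against 163 of 2330, at medians of 14129 and 10066 UMIs. Thinned to 3500 UMIs, their shares were 6.21% (interval 3.72 to 9.63%) and 3.29% (interval 2.56 to 4.16%), which overlapped. Their Gad2 levels, 12.4 and 10.8 CPM, also had overlapping intervals. The makeup of these Gad2 cells differed, with a Dlx-factor UMI in 8 of the 58 and in 137 of the 163. The split without cells holding a Dlx-factor UMI was not tested here. Of the telencephalic vesicle progenitors with 2 or more Fgf8 and Fgf17 UMIs, 30 of 421 held Gad2 (7.13%, interval 4.86 to 10.0%, median 11295 UMIs), against 81 of 4855 with none (1.67%, interval 1.33 to 2.07%, median 9891). Thinned to 3500 UMIs these shares were 1.98% (interval 0.859 to 3.86%) and 0.389% (interval 0.227 to 0.622%). Among these progenitors, 6 of the 30 and 44 of the 81 with Gad2 held a Dlx-factor UMI. Unlike the septal explants, the progenitors with 1 Fgf8 or Fgf17 UMI did not lie between these groups at full depth. Gad2 was found in 1 of these 245 cells (0.408%, interval 0.0103 to 2.25%, median 12250 UMIs). Mesenchyme of the same library held Gad2 in 2.31% of cells (interval 1.11 to 4.21%, median 12286 UMIs) at full depth, below the interval of the cells with 2 or more such UMIs, and in 0.924% (interval 0.252 to 2.35%) after thinning, when the intervals overlapped.

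**Figure D4:**
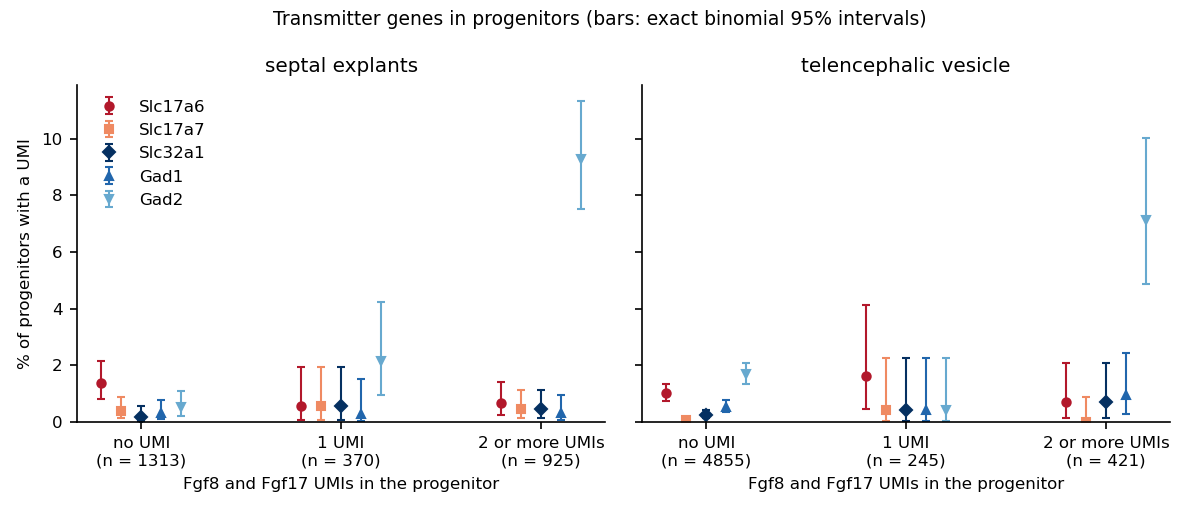
Share of progenitors with at least 1 UMI of each gene, in percent, by the number of Fgf8 and Fgf17 UMIs in the cell, for the septal explants (left) and the telencephalic vesicle (right); points are shares of cells and bars exact binomial 95% intervals. Gad2 stands at 9.30% and 7.13% in cells with 2 or more such UMIs, and the other 4 genes stay below 2% in every group.

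Other genes of transmitter handling followed the same division only in part. Of 5 further GABA genes, 2 had at least 50 UMIs in each library. Abat, which breaks GABA down, was 2-fold or more higher in Dlx-factor neurons in both (21.5 against 4.19 CPM in the septal explants, 45.8 against 9.20 CPM in the telencephalic vesicle). Aldh5a1, the next enzyme of that path, was within 2-fold. Over these 2 genes the median log2 difference was 1.60 and 1.38, against 0.00 and 0.05 over all genes tested.

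Genes of glutamate handling gave few differences. Of 7 further glutamate genes 4 could be counted in each library, and 0 of the septal and 1 of the telencephalic vesicle genes passed 2-fold, with 6.32% and 4.97% of all genes passing towards pallial-factor neurons. With 4 genes, these counts do not set the list apart from other genes. That gene was Slc1a2, the glutamate transporter GLT-1, at 88.0 CPM in pallial-factor and 30.7 CPM in Dlx-factor neurons. Slc17a8, which encodes VGLUT3, was found in 2 and 3 neurons.

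Genes of monoamine handling were higher in Dlx-factor neurons. Of 11 genes for other transmitters 3 could be counted, and all 3 passed 2-fold in both libraries, where 2.55% and 3.54% of all genes did so. Their median log2 difference was 3.31 and 4.18, against 0.00 and 0.05 over all genes tested. Slc18a2, the vesicular monoamine transporter, was at 30.2 against 3.04 CPM in the septal explants and 62.1 against 3.44 CPM in the telencephalic vesicle. Th, tyrosine hydroxylase, was at 17.0 against 2.79 CPM and 36.7 against 11.8 CPM, and Ddc, the decarboxylase that follows it, at 11.3 against 1.07 CPM and 19.5 against 0.887 CPM. Chat, the enzyme of acetylcholine synthesis, was found in 1 and 5 neurons, and Slc6a5, the glycine transporter, in 0 of 1643 and 2 of 2468.

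Vesicle release genes, which both kinds of neuron need, gave a mixed picture. Of 12 genes, 5 were 2-fold or more higher in pallial-factor neurons of the septal explants (Syp, Snap25, Syn2, Cplx1 and Cplx2) and 0 in Dlx-factor neurons, where 6.32% and 2.55% of all genes were called. Syp and Cplx2 of the telencephalic vesicle were higher in pallial-factor neurons, and Syt1, the calcium sensor of release, was higher in Dlx-factor neurons (545 against 194 CPM), with 4.97% and 3.54% of all genes called in these directions. The median log2 difference of the 12 genes was -0.62 and -0.09, against 0.00 and 0.05 over all genes tested.

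**Figure D5:**
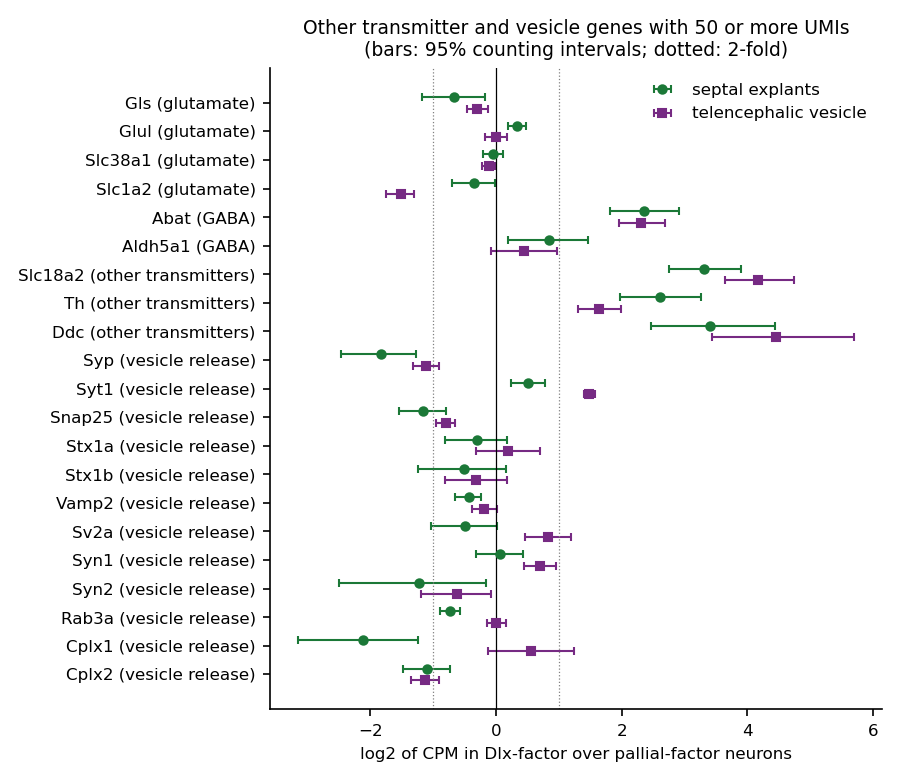
Log2 ratio of CPM in Dlx-factor over pallial-factor neurons for the genes of 4 lists with at least 50 UMIs, in the septal explants (circles) and the telencephalic vesicle (squares); bars are 95% counting intervals and dotted lines mark 2-fold. Abat, Slc18a2, Th and Ddc lie right of the 2-fold line in both libraries, and Syp and Cplx2 lie left of it in both.

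The genes whose level over the classes was most like that of each transmitter gene were found by Pearson correlation of log2(CPM + 10), over 10 classes and 10820 genes in the septal explants and over 16 classes and 11998 genes in the telencephalic vesicle. The classes of a library share its depth, and the values are descriptions. Slc17a6 was most like Cacna2d1, a calcium channel subunit (r = 0.998), in the septal explants and like the homeobox gene Uncx (r = 0.993) in the telencephalic vesicle. Slc17a7 was most like Tfap2e (r = 0.994) and Kcng1 (r = 0.942). Slc32a1 and Gad1 of the septal explants shared their closest gene, Gnrh1 (r = 0.999 for both), and the closest to Gad2 was E130006D01Rik (r = 0.997). The septal Dlx groups of 36 and 29 neurons were too small to enter. The 249 neurons with Isl1 or Ebf1 were therefore the only septal Dlx neuron class, and a gene high there alone gives r near 1. At rank 5, r was still 0.996 for Slc32a1 and 0.995 for Gad1.

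For the telencephalic vesicle, the gene closest to both Slc32a1 (r = 0.996) and Gad2 (r = 0.990) was Gm14204, a non-coding gene, and that closest to Gad1 was Arl4d (r = 0.984). Gm14204 lies at chr2:158595472-158610723 on the minus strand, head to head with Slc32a1, and the 2 genes do not overlap. It was counted at 213 CPM in Dlx-factor neurons and 1.44 CPM in pallial-factor neurons, and 0 UMIs were found in Trp73 neurons. The sequence printed for Slc32a1 spans its start. Gm14204 was not among the features of the septal explants, so that it could not be counted there.

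The reporters of the septal explants divided the cells by embryo genotype only in part, with an eYFP UMI in 3763 of 5384 cells (69.9%) and a tdTomato UMI in 403. The 8 embryos with eYFP were of E11.5 and the 4 with tdTomato of E12.5, so that genotype and stage cannot be told apart, and 112 cells held UMIs of both reporters. The split was made after values were seen. Dlx-factor neurons with an eYFP UMI held 261 CPM of Gad2, 155 CPM of Gad1 and 153 CPM of Slc32a1, and those without held 247, 122 and 144 CPM, with overlapping intervals. Cells with both reporters were counted in the eYFP and in the tdTomato group, so that these groups can share cells. The 15 Dlx-factor neurons with a tdTomato UMI held 66.4 CPM of Gad1 (11 UMIs in 6 cells, interval 33.1 to 119). This lay below the interval of those with an eYFP UMI (140 to 171) and overlapped that of those without one (100 to 148). Gad2, at 217 CPM (interval 152 to 301), and Slc32a1, at 115 CPM (interval 69.0 to 179), overlapped both groups. Cells with tdTomato alone are also part of the group without an eYFP UMI. Pallial-factor neurons with and without an eYFP UMI held 75.4 and 66.1 CPM of Slc17a6. The 100 pallial-factor neurons with a tdTomato UMI held 64.4 CPM of Slc17a6 (interval 51.6 to 79.5) and 6.66 CPM of Slc17a7 (interval 3.05 to 12.6), where those with an eYFP UMI held 12.4 CPM of Slc17a7 (interval 10.1 to 15.0).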

How the data were processed

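The authors deposited raw counts, the number of UMIs per gene and barcode, without normalisation. The submitters' processing notes name Cell Ranger 2.1.1 (septal explants) and 7.1.0 (telencephalic vesicle), with mm10. Whether intronic reads were counted in the latter is not given in the sources used here. Kit and software differ, so that levels were read within a library only.

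Barcodes were kept when their mitochondrial share lay no more than 3 MAD from the median (medians 2.20% and 2.77%), and doublets were removed with Scrublet in scanpy 1.11.5 at 0.8% per 1000 barcodes, leaving out 60 and 713. Erythroid (globins 10% or more of UMIs), mesenchymal (10 UMIs), endothelial and macrophage (5 UMIs) cells were set apart. Progenitors lie at -1 or below on the axis log2((neuronal UMIs + 1)/(AP UMIs + 1)). Trp73 neurons were taken from pallial-factor neurons and neurons under 2 factor UMIs, and the Zic class needed 2 UMIs summed over a list of Zic genes and Lhx9. Of the rest, 5 and 178 neurons had no class. Dlx subgroups needed 2 UMIs of a list and more than of the other. UMIs were summed per class and scaled to CPM. For thinned shares, 511 and 1145 kept cells shallower than the thinning depth were left out. A ratio of counts has the exact conditional binomial interval. Genes named were the 5 transmitter genes, list genes past 2-fold with 50 UMIs, Chat, Th, Slc17a8 and Slc6a5 whatever their values, and, of 5 most alike per gene, the first. Some genes of these lists are not reported here. The genes, lists and classes were chosen with earlier results of these data known. The ratios of summed counts and their intervals were tested on simulated Poisson counts. Filtering, doublet calls, class assignment and shares of cells were not part of that test. Intervals were computed with scipy 1.17.1, sums with numpy 2.4.6 and pandas 2.3.3, and figures with matplotlib 3.10.9, under Python 3.11.15.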

Additional observations from a re-analysis of the deposited data

How the results depend on the processing

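Of 118 values recomputed under other settings, 95 moved by less than the counting interval and 23 moved by more. The 95 include values that could not move. The share of neurons with Slc17a6 and a GABA gene does not use the factor lists, so that changes of those lists left it as it was. A change of direction was possible only for the log2 ratios of Slc17a6 and Gad2, since shares of cells have no direction. Each ratio had 11 alternatives per library, and 0 of them changed direction. No paired analysis was possible because each tissue has 1 library. The share of Dlx-factor neurons with Gad1 and Gad2 was 40.1% and 48.5% (septal explants, then telencephalic vesicle) with neurons from 0 on the axis, 56.2% and 65.0% from 2, and 32.5% and 31.3% with 2 UMIs for a positive cell, and 37.0% in the thinned telencephalic vesicle. The share of neurons with Slc17a6 and a GABA gene was 0.483% and 0.826% after thinning and 0.122% and 0.486% with 2 UMIs, and 2.01% in the telencephalic vesicle with doublets kept. Slc17a7 was in 9.45% and 9.28% of pallial-factor neurons after thinning, in 2.31% and 4.41% with 2 UMIs, and in 19.6% with 4 factor UMIs in the telencephalic vesicle. There, the log2 ratio of Gad2 was 7.43 with neurons from 0 and 9.16 with all factor UMIs from 1 list, and that of Slc17a6 was 9.08 without cells over 2 times the median depth. For Gad2 in progenitors with 2 or more Fgf8 and Fgf17 UMIs, whose alternatives were chosen after seeing the data, the share was 5.48% and 1.98% after thinning, and 2.41% with progenitors at -2 or below in the telencephalic vesicle. Depth limits what can be seen of Slc17a7 and of weak Gad2, and a pooled library shows no variation between embryos.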
